A study of Mus musculus with 16 samples.

Results

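The proneural and Olig genes described here are 9 genes of the basic helix-loop-helix (bHLH) family, namely Neurog1, Neurog2, Neurog3, Neurod1, Neurod2, Atoh1, Olig1, Olig2 and Olig3, out of 22367 protein-coding genes of the mouse annotation. Their peaks were all listed ChIP-seq peaks that overlapped one of these genes or lay within 10 kb of it, which gave 16 of the 4992 peaks for total Jarid2 and 24 of the 4502 peaks for the form of Jarid2 di-methylated at residue K116 (Jarid2-K116me2). No gene of the group was without a peak in either list. A peak containing the 5′ end of an annotated transcript is called a peak over the start, and every other one a flanking peak.

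Proneural bHLH factors such as the neurogenins and Atoh1 commit progenitors to a neuronal fate and bind a short DNA motif, the E-box, as dimers with ubiquitous E proteins. NeuroD factors act later in the same cascade. Of the Olig factors, Olig2 patterns the ventral neural tube and specifies motor neurons, and Olig1 and Olig2 act in oligodendrocyte development. Olig3 marks dorsal neural progenitors. In embryonic stem cells (ESC) genes of this kind are textbook targets of the Polycomb Repressive Complex 2 (PRC2), which trimethylates lysine 27 of histone H3 (H3K27me3) and to which Jarid2 binds as a cofactor.

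The study compared total Jarid2 with Jarid2-K116me2 in E14, a mouse ESC line, and asked how H3K27me3 is set when Jarid2 is absent or cannot be methylated. The E14 cells were grown undifferentiated in serum with LIF, the cytokine that keeps ESC from differentiating, and gave 1 sample for each antibody, so no score or width below carries a replicate error. H3K27me3 was profiled in 3 other ESC lines that all derived from Jarid2 -/- cells. One was the knockout itself (KO), another carried a bacterial artificial chromosome (BAC) with wild-type Jarid2 (WT rescue), and the last carried the same BAC mutated from lysine to alanine at this residue (K116A rescue). The BACs had been inserted into the genome by a transposon. Each of these lines was taken undifferentiated in serum with LIF and as embryoid bodies (EB) after 8 days without LIF, with 2 biological replicates each, which gave 12 H3K27me3 samples. The Jarid2 lists therefore come from another line than the H3K27me3 lists, and the files used here give neither the reads in a peak nor those of a library, so no counting error can be given. They hold no expression values, and the label ESC was not checked against marker transcripts. Of 9 genes known to be active in ESC, 1 had a Jarid2 peak over a transcript start (Esrrb, score 2868.23), beside 13.5% of all protein-coding genes. The Esrrb peak, at chr12:87761868-87765194, did not contain the 5′ end of the gene record, at 87702067.

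The H3K27me3 lists differed in size. The 6 ESC lists held 1478 to 9836 peaks that covered 2.311 to 29.24 Mb, and the 6 EB lists held 6811 to 14125 peaks that covered 19.65 to 55.03 Mb. The smallest list, 1478 peaks over 2.311 Mb, was that of the ESC WT rescue replicate 1. By the read counts in the supplement of the study, this sample had the most reads of the 6 ESC samples after removal of duplicates. Of the 6 EB samples, both of the WT rescue had the fewest by the same counts. The WT rescue replicate 2 had fewer reads in EB than in ESC. The part of read number in the results was not tested. The list of replicate 1 was shorter than that of replicate 2 in 6 of 6 pairs. Among the replicates 2 alone the lists covered 22.78 to 29.24 Mb in ESC and 22.52 to 55.03 Mb in EB, and at the WT rescue the EB list was the shorter, 8446 against 8579 peaks. List size thus moved with the replicate and, over all 12 samples, with the stage, and its part in the results on stage was not tested. The study rated the replicates 2 as of higher quality. It drew on them to define the peaks for comparing ESC with EB.

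The sequences just upstream of 6 of the genes are shown because they span the range of CpG content in the group, from Neurog1 with 27 CpG in 250 bases to Olig3 with 3, and because they include the 2 genes with the weakest peaks over the start, Neurog3 and Neurod1. They were read from the mm9 genome (NCBIM37), on the strand of the gene, and end at the last base before the annotated start; for Neurod1 the window was moved 34 bases upstream to leave out the first exon of the overlapping gene Cerkl. CpG dinucleotides are in capitals. The positions are chr13:56353525-56353774 on the minus strand for Neurog1, chr10:61595588-61595837 on the plus strand for Neurog3, chr2:79296943-79297192 on the minus strand for Neurod1, chr6:64678890-64679139 on the plus strand for Atoh1, chr16:91225545-91225794 on the plus strand for Olig2 and chr10:19076116-19076365 on the plus strand for Olig3. None of these windows held an annotated exon.
Neurog1: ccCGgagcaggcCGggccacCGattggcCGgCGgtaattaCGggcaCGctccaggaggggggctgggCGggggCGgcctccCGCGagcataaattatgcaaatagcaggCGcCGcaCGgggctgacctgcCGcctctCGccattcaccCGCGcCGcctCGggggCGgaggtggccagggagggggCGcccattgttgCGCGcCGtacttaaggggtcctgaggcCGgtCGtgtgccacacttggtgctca
Neurog3: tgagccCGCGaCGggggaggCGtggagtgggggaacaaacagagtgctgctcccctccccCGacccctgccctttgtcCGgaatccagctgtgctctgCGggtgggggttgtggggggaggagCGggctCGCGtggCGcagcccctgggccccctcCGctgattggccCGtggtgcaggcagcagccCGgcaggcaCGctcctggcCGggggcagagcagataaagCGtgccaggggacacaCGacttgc
Neurod1: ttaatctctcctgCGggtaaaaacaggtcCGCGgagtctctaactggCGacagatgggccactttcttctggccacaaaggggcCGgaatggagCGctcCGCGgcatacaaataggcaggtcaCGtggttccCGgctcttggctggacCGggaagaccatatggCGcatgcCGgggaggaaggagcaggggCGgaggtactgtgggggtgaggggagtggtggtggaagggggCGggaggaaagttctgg
Atoh1: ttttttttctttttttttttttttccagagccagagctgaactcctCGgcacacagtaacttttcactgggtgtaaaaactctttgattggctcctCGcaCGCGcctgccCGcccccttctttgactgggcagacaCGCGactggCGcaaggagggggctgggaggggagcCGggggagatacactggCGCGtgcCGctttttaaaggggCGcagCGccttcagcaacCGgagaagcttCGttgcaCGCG
Olig2: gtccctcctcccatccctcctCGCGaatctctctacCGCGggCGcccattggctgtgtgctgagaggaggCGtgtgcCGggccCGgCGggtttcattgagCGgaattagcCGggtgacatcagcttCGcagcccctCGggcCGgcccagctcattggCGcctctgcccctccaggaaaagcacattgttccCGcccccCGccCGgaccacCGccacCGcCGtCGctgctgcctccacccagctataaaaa
Olig3: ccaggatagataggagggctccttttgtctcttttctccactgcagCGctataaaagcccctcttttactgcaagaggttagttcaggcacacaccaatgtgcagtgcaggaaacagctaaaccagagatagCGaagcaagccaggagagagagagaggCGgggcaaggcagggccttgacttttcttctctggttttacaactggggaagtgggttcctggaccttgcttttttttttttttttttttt

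CpG was dense upstream of most of the genes, and Olig3 stood at the other end. The 250 bases before the start held 27 CpG at Neurog1, 22 at Olig2, 18 each at Neurog3, Atoh1 and Olig1, 14 at Neurod1, 11 at Neurod2, 8 at Neurog2 and 3 at Olig3. For Neurod1 this is the window directly before the start, and the moved window shown above holds 15. The median of the 9 genes was 18, beside 16 for the 707 genes with a Jarid2 peak over the start at the upper end of the score scale and 8 for all protein-coding genes. The CpG ratio, the observed number of CpG over that expected from the C and G content, was 0.679 at the median of the 9 genes in the 1001 bases centred on the start, beside 0.726 for these 707 genes and 0.481 for the genes with no Jarid2 peak over the start. It ranged from 0.455 at Neurod2 to 0.852 at Neurog2. The E-box, searched as CANNTG, which reads the same on both strands, was present in the upstream window of 5 of the 9 genes, with 3 copies each at Neurod1 and Neurod2 and 1 each at Neurog1, Neurog3 and Olig3. It was present in 63.5% of the upstream windows of all protein-coding genes.

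All 9 genes had a Jarid2 peak over the start, where 13.5% of protein-coding genes did, and all 9 had a Jarid2-K116me2 peak over the start, where 11.9% did. A Jarid2 peak within 10 kb was present at 20.2% of protein-coding genes. The score, a p-value against the input that MACS writes as minus 10 times its log10, piles up at 3100 in both lists, so that the strongest peaks are not ranked among themselves. In the Jarid2 list 7 of the 9 peaks over the start stood at 3100, whereas 23.4% of the genes with such a peak reached 3100. In the Jarid2-K116me2 list 6 of the 9 stood at 3100, beside 30.7% of the genes with such a peak.

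**Figure D1:**
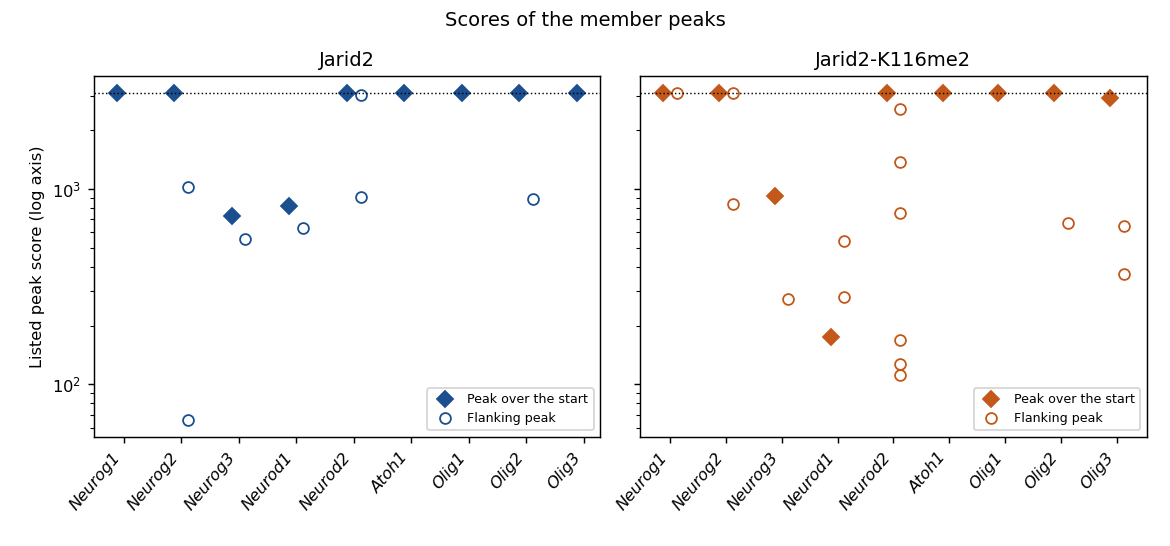
Scores of the member peaks (log axis) for total Jarid2 (left) and Jarid2-K116me2 (right), 1 sample per antibody, with the 9 genes on the x axis, diamonds for peaks over the start, open circles for flanking peaks and a dotted line at 3100. In the Jarid2 list 7 diamonds and no circle lie on the line, and in the Jarid2-K116me2 list 6 diamonds and 2 circles do.

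Among the neurogenins, Neurog1 and Neurog2, which start neurogenesis in sensory ganglia and in the cortex and spinal cord, had broad and strong peaks of both antibodies. At Neurog1 (ENSMUSG00000048904.4) the Jarid2 peak over the start lay at chr13:56349279-56362686, was 13408 bp wide and scored 3100. Jarid2-K116me2 was listed there as a peak over the start of 6831 bp and a flanking peak of 4832 bp upstream of it, both with a score of 3100. At Neurog2 (ENSMUSG00000027967.7) the Jarid2 peak over the start lay at chr3:127328144-127341564, was 13421 bp wide and scored 3100.

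Neurog2 had further peaks on both sides. Jarid2-K116me2 had peaks over the start (5939 bp, score 3100) and upstream (3924 bp, score 3100), and a downstream peak of 2038 bp with a score of 838.12. Downstream of the gene Jarid2 had a peak of 2692 bp with a score of 1024.0, which the downstream Jarid2-K116me2 peak overlapped, and a peak of 614 bp with a score of 65.45. The latter was the only peak of the group listed for Jarid2 and not overlapped in the Jarid2-K116me2 list, and it was also the weakest and the narrowest of the 16 Jarid2 peaks.

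Neurog3, the neurogenin that specifies the endocrine cells of the pancreas and gut, was the weakest of the 3. This gene (ENSMUSG00000044312.3) lies in an intron of 2010107G23Rik, so its peaks are also within that gene. Its Jarid2 peak over the start, chr10:61594754-61597427, was 2674 bp wide with a score of 730.83, and an upstream flanking peak of 2956 bp scored 553.26. Jarid2-K116me2 gave 921.65 over the start (2316 bp) and 275.06 upstream (1566 bp).

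Among the factors that act later, Neurod2 was strong and Neurod1 weak. Neurod2 (ENSMUSG00000038255.6), which acts in maturing cortical neurons, had a Jarid2 peak over the start of 13107 bp at chr11:98179597-98192703 with a score of 3100, and upstream peaks of 2750 bp (909.89) and 5040 bp (3006.07). Jarid2-K116me2 was listed in 7 pieces at Neurod2, a peak over the start of 5537 bp with a score of 3100 and 6 flanking peaks with scores from 111.64 to 2565.34. The Jarid2 peak over the start was thus matched by 5 separate Jarid2-K116me2 peaks, which covered 82.2% of it.

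Neurod1 (ENSMUSG00000034701.8), needed for neurons of the inner ear and for pancreatic beta cells, differed from the rest of the group in where the methylated form was strongest. Its Jarid2 peak over the start, chr2:79294399-79297238, was 2840 bp wide with a score of 819.79 and also contained the start of Cerkl, so the signal cannot be given to 1 of the 2 genes. An upstream Jarid2 peak of 2716 bp scored 634.33. Jarid2-K116me2 scored 175.45 over an internal transcript start (1071 bp), 279.15 within the gene and 543.11 upstream, so here the flanking peaks scored higher. The 5′ end of the gene record itself lay outside all 3 Jarid2-K116me2 peaks.

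Atoh1 (ENSMUSG00000073043.4), the factor for cerebellar granule neurons and hair cells, had 1 peak of each antibody, both at 3100. The Jarid2 peak lay at chr6:64676510-64686177 (9668 bp) and the Jarid2-K116me2 peak within it, at 8795 bp, covered 91.0% of it. No flanking peak was listed within 10 kb.

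The Olig genes all reached 3100 for Jarid2 but differed in width. Olig1 (ENSMUSG00000046160.5) and Olig2 (ENSMUSG00000039830.8), which act in oligodendrocyte development and, for Olig2, in motor neuron specification, are neighbours on chromosome 16. The Jarid2 peak over the start of Olig1, chr16:91268889-91272927, was 4039 bp wide and that of Olig2, chr16:91218641-91230821, 12181 bp. The Jarid2-K116me2 peaks over the starts measured 2815 and 11139 bp, with a score of 3100 at both genes.

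Olig2 had in addition a downstream Jarid2 peak of 3069 bp (890.99), matched by a Jarid2-K116me2 peak of 1822 bp (672.51). At Olig3 (ENSMUSG00000045591.5), which marks dorsal neural progenitors, the Jarid2 peak over the start, chr10:19071902-19083066, was 11165 bp wide. Jarid2-K116me2 was listed over it as 3 separate peaks, the downstream one running past its end, that covered 55.4% of it, with a score of 2931.48 over the start (2958 bp), 369.03 upstream and 643.14 downstream. Olig3 was therefore the gene where the methylated form covered the smallest share of the Jarid2 peak over the start, the others ranging from 69.7% at Olig1 to 91.4% at Olig2.

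**Figure D2:**
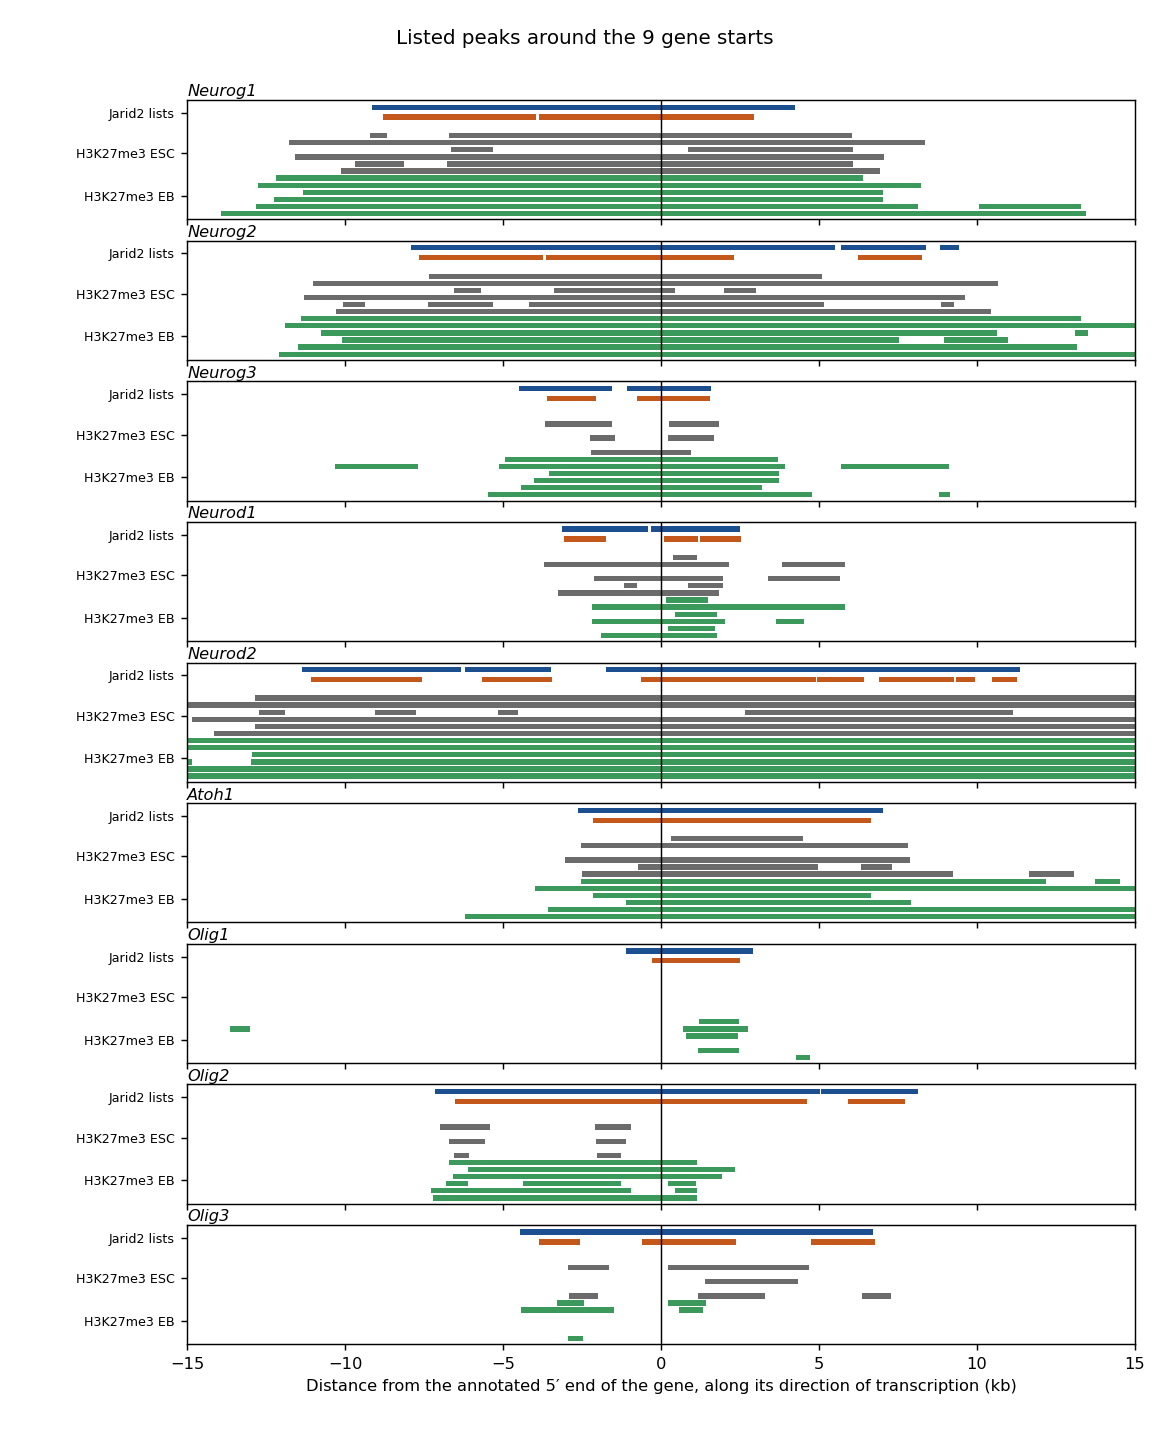
Listed peaks within 15 kb of the annotated 5′ end of each gene (vertical line), as distance in kb along the direction of transcription, with Jarid2 in blue, Jarid2-K116me2 in orange, the 6 ESC H3K27me3 samples in grey and the 6 EB samples in green. From top to bottom both sets of 6 run KO replicates 1 and 2, WT rescue 1 and 2, K116A rescue 1 and 2; Jarid2 covers the start in all 9 panels, and the H3K27me3 peaks of Olig1 and Olig3 leave the start uncovered in all 12 samples.

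The peaks over the start were the stronger ones at genes that also had flanking peaks, with Neurod1 as the exception for the methylated form. For Jarid2 the peak over the start scored higher than every flanking peak of the same gene at 5 of 5 genes with flanking peaks. For Jarid2-K116me2 it scored higher at 4 of 7 genes, tied at 3100 at Neurog1 and Neurog2, and lower at Neurod1. The median score was 3100 over the start (9 peaks) against 890.99 in the flanks (7 peaks) for Jarid2, and 3100 (9 peaks) against 643.14 (15 peaks) for Jarid2-K116me2.

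All listed peaks showed the same order at a lower level. Across all protein-coding genes the medians were 896.35 over a start and 185.22 in the flanks for Jarid2, and 1286.415 and 309.96 for Jarid2-K116me2. Scores of 3100 or more were given to 21.9% of all Jarid2 peaks over a start and 4.29% of flanking ones, and to 29.1% and 8.3% in the Jarid2-K116me2 list. Because most member peaks over the start stand at 3100, their distance from the flanking peaks is not resolved by the score. When the peaks at 3100 were left out, only the weaker genes remained for the start, and the difference of the Jarid2 medians became -115.7 (2 peaks over the start and 7 flanking).

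The peaks over the start were also wide. Their widths had a median of 11165 bp in the Jarid2 list and 5537 bp in the other, beside 2411 and 2079 bp at the median of all protein-coding genes with such a peak. For Jarid2 the widths at Neurog1, Neurog2, Neurod2, Atoh1, Olig2 and Olig3 were above the 90th percentile of those genes, 6369.5 bp, and those at Neurog3, Neurod1 and Olig1 were below it. For Jarid2-K116me2 Neurog1, Neurog2, Neurod2, Atoh1 and Olig2 were above the corresponding 5464.4 bp. The genes themselves are short, 1659 bp at Neurog1 to 4234 bp at Neurod2 against a median of 15427 bp over all protein-coding genes, and have 1 or 2 exons each. The wide peaks thus reached beyond both ends of the gene, as at Neurog1, Neurog2, Neurod2, Atoh1 and the 3 Olig genes.

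**Figure D3:**
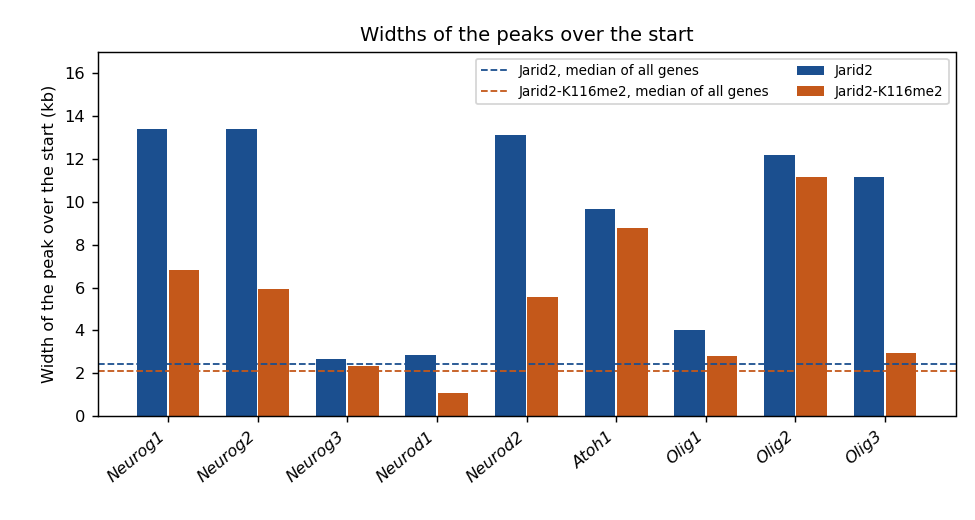
Width in kb of the peak over the start of each gene for Jarid2 (blue) and Jarid2-K116me2 (orange), 1 sample per antibody, with dashed lines at the medians over all protein-coding genes with such a peak (2411 and 2079 bp). The Jarid2 bar is the taller one at all 9 genes, by most at Olig3 (11165 against 2958 bp) and by least at Neurog3 (2674 against 2316 bp).

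The peaks of both antibodies overlapped at these genes, as they did over the whole lists. A Jarid2-K116me2 peak overlapped 15 of the 16 Jarid2 peaks (93.75%), against 79.1% in the whole Jarid2 list, and 24 of 24 Jarid2-K116me2 peaks overlapped a Jarid2 peak, against 98.7% in the whole list. Overlap counted from 1 bp. With at least 50% of each peak required, 62.5% and 41.67% remained, beside 70.8% and 78.5% in the whole lists. At 5 of the 9 genes the Jarid2 peak over the start was overlapped by more than 1 Jarid2-K116me2 peak.

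CpG was less dense at the median of the flanking peaks than over the start. Their median CpG ratio was 0.379 for Jarid2 (7 peaks, 0.298 to 0.459), against 0.499 over the start (9 peaks, 0.385 to 0.683). For Jarid2-K116me2 the medians were 0.385 in the flanks (15 peaks, 0.132 to 0.551) and 0.527 over the start (9 peaks, 0.401 to 0.792), so the ranges overlapped for both antibodies. All listed peaks had higher medians, 0.593 over a start and 0.541 in the flanks for Jarid2, and 0.631 and 0.582 for Jarid2-K116me2. The ratio was taken over the whole peak, and the member peaks were wider. For Jarid2 over the start the median widths were 11165 bp at the members and 2343 bp in all listed peaks. The part of width was not tested. The E-box letters CANNTG occurred 5.28 times per kb at the median of the Jarid2 peaks over the start and 6.09 times in the flanks, against 4.17 and 4.48 in all listed peaks of these classes. In the Jarid2-K116me2 list the order was the other way, 5.21 over the start and 5.04 in the flanks, against 4.0 and 4.1 in all listed peaks.

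The middle 250 bases of 2 flanking peaks of total Jarid2 are shown because they are the strongest and the weakest of the 7. The first, at chr11:98199684-98199933 on the minus strand, lies upstream of Neurod2 in the peak with a score of 3006.07 and holds 19 CpG. The second, at chr3:127345062-127345311 on the plus strand, lies downstream of Neurog2 in the peak with a score of 65.45, the one not matched by Jarid2-K116me2, and holds 3 CpG. Both are intergenic in mm9, and CpG is in capitals.
Neurod2 upstream peak: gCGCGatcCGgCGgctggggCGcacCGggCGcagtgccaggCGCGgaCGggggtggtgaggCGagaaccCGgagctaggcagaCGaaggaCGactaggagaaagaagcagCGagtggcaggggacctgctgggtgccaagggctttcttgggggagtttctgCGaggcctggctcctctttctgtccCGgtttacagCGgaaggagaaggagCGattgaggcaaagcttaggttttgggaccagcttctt
Neurog2 downstream peak: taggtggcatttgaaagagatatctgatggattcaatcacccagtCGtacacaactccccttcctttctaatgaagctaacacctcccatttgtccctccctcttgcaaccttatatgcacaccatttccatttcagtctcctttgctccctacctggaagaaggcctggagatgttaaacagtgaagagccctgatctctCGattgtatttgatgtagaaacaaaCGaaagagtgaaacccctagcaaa

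**Figure D4:**
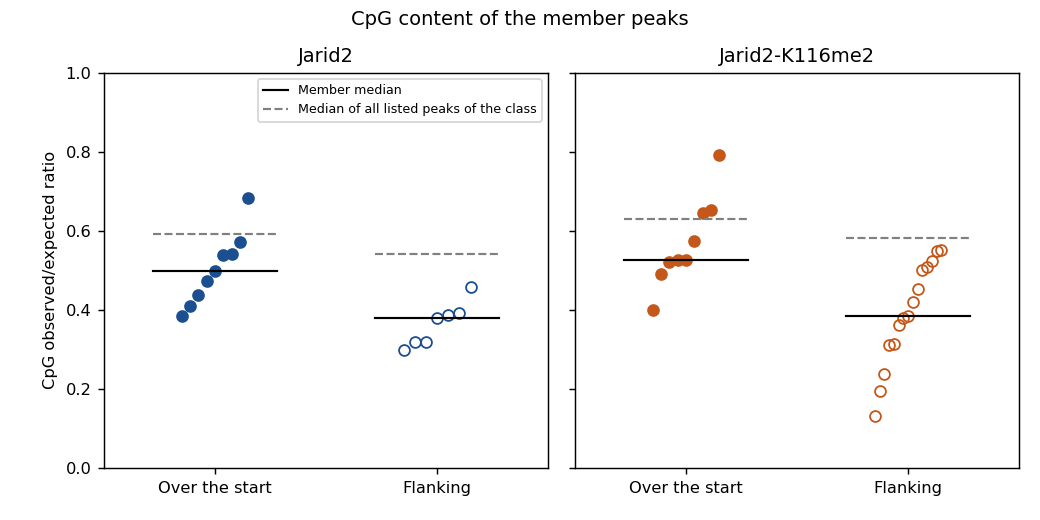
Observed over expected CpG ratio of each member peak over the start (filled) and in the flanks (open) for Jarid2 and Jarid2-K116me2, with solid lines at the median of the member peaks and dashed lines at the median of all listed peaks of the class. The member medians are 0.499 and 0.379 for Jarid2 and 0.527 and 0.385 for Jarid2-K116me2, each under its dashed line.

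The H3K27me3 lists, which played no part in choosing the peaks, were read as the percentage of the 5 kb on each side of the start that listed broad peaks cover. In ESC the 9 genes ranged from fully covered to without any listed peak, although 7 of them carried Jarid2 at 3100 in E14 cells. Neurog1, Neurog2 and Neurod2 were covered over the whole window in the 3 ESC replicates 2, which held for 12.4% of the 707 genes with a Jarid2 score of 3100 or more. On the same measure the Jarid2 peaks covered 100% of the window at Neurog2 and Olig2, 94.6% at Olig3 and 40.4% at Olig1. Olig1 had no listed H3K27me3 peak in the window in any ESC sample, which held for 2.69% of the same genes. The starts of Olig1, Olig2 and Olig3 were under no H3K27me3 peak in any ESC sample (11.3% of the same genes), and those of Olig1 and Olig3 under none in any of the 12 samples (9.05%).

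Between ESC and EB the coverage of Neurog3 and Olig2 separated completely, and that of the other genes did not. Across the 8176 genes with a listed peak in their window in at least 1 sample, all 6 EB samples were above all 6 ESC samples at 5.33% of genes and below them at 0.0612%. The stage labels were permuted within each line in an exact two-sided test with 216 arrangements, whose smallest p is 0.00926, and the p-values were adjusted (Benjamini-Hochberg) over all 8176 genes. The smallest adjusted p reached was 0.0927, so that no gene passed 0.05 in either direction (0.0% of genes higher in EB and 0.0% lower), while 1660 genes (20.3%) had an unadjusted p under 0.05. A limma fit of the same values, run as an alternative, called 570 genes (6.97%) higher in EB and 12 (0.147%) lower, and among the 9 genes it called Neurog3 and Olig2. Neurog3 and Olig2 also passed that fit in 12 of 12 runs with 1 sample left out (limma adjusted p at most 0.0105 and 0.0104). The median difference over all tested genes was 4.49 percentage points and that over the 9 genes 11.2. Without the ESC WT rescue replicate 1 the medians were 3.192 and 1.385, so that the higher median of the 9 genes rested on this sample. With the replicates 2 alone they were 3.406 and 0.

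At Neurog3 the lowest, median and highest coverage were 0, 11.2 and 37.1% in ESC and 73.0, 82.0 and 97.7% in EB. All EB samples were above all ESC samples, and the 3 ESC samples at 0 were the replicates 1. The means were 15.2% ± 17.3 (SD, n = 6) and 83.4% ± 9.40 (SD, n = 6), a difference of 68.2 percentage points (exact permutation p = 0.00926, the smallest possible, adjusted p = 0.0927; limma adjusted p = 0.00198). With the replicates 2 alone the difference was 57.8 percentage points. A broad peak lay over the start in 1 of 6 ESC samples and in 6 of 6 EB samples.

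At Olig2 the coverage was 0, 3.86 and 11.2% in ESC and 40.2, 61.3 and 73.4% in EB (lowest, median, highest). Here too the groups did not overlap, and the replicates 1 were the 3 ESC samples at 0. The means were 4.72% ± 5.29 (SD, n = 6) and 58.8% ± 12.8 (SD, n = 6), a difference of 54.1 percentage points (exact permutation p = 0.00926, adjusted p = 0.0927; limma adjusted p = 0.00198). With the replicates 2 alone it was 48.9 percentage points. The start itself was under a broad peak in 0 of 6 ESC samples and 4 of 6 EB samples.

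Within a line and replicate number, 1 pair of samples had lists of like size. The WT rescue replicates 2 had 22.78 Mb listed in ESC and 22.52 Mb in EB, and between them Neurog3 went from 22.5 to 77.6% and Olig2 from 9.34 to 40.2%. In the same pair Atoh1 went from 80.4 to 61.1% and Olig3 from 29.3 to 0%, and Olig1 was at 0% in both. These are 2 single samples, and in the other pairs of replicates 2 the lists were longer in EB, 55.03 against 29.24 Mb in the KO and 37.17 against 23.84 Mb in the K116A rescue. In the WT rescue pair the EB sample had fewer reads than the ESC sample, by the supplement of the study. No test was made on these samples, and the part of list size and read number was not tested.

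Olig1 had a smaller difference that did not separate the stages. It was at 0% in all 6 ESC samples and at 0, 12.8 and 20.5% in EB (lowest, median, highest), with only the WT rescue replicate 2 at 0 in EB. The difference of 11.2 percentage points gave an exact permutation p of 0.0278 and an adjusted p of 0.154. The EB peaks in the window all lay downstream of the start.

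Olig3 went the other way without passing the test. Its coverage was 0, 14.6 and 57.4% in ESC and 0, 2.36 and 36.9% in EB (lowest, median, highest), a difference of -9.12 percentage points with an adjusted exact permutation p of 0.74. With the replicates 2 alone the difference was -25.2 percentage points. In ESC the replicates 1 were all at 0, and the replicates 2 stood at 57.4% in the KO, 29.3% in the WT rescue and 30.5% in the K116A rescue. In EB the KO was at 20.9 and 36.9%, the WT rescue at 0 in both replicates, and the K116A rescue at 0 and 4.71%.

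At Atoh1 coverage was 0, 65.9 and 80.4% in ESC and 61.1, 80.5 and 100% in EB (lowest, median, highest), so the stages overlapped. The difference was 25.7 percentage points (exact permutation p = 0.0741, adjusted p = 0.28), and its size rested on single samples. It was 12.3 percentage points without the ESC WT rescue replicate 1, 39.1 without the ESC WT rescue replicate 2 and 6.74 with the replicates 2 alone. The start was under a broad peak in 4 of 6 ESC and 6 of 6 EB samples.

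Neurod1 differed by replicate and hardly by stage. Its coverage was 0, 33.0 and 70.4% in ESC and 13.1, 25.7 and 71.8% in EB (lowest, median, highest), a difference of -0.0933 percentage points (adjusted exact permutation p = 1.0). The start was under a broad peak in the 3 replicates 2 of each stage and in none of the replicates 1. The replicates 1 had the shorter lists, as given above.

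Neurog1, Neurog2 and Neurod2 were at 100% in all 6 EB samples, so the measure could not rise further at them. In ESC the lowest, median and highest values were 41.6, 100 and 100% at Neurog1, 48.6, 100 and 100% at Neurog2 and 28.3, 100 and 100% at Neurod2. The lowest value of each came from the ESC WT rescue replicate 1, the smallest list, and with the replicates 2 alone the differences were 0 at all 3 genes. The differences of 9.73, 9.95 and 11.9 percentage points did not pass the test (adjusted exact permutation p of 1.0, 0.74 and 1.0). The summed width of the broad peaks touching the window, which has no such ceiling, was 5244, 14968 and 20110 bp in ESC and 18359, 20104.5 and 27403 bp in EB at Neurog1 (lowest, median, highest). It was 4864, 16573 and 21694 bp against 17632, 24681.5 and 27509 bp at Neurog2, and 9138, 30136 and 40695 bp against 32112, 42483.5 and 50228 bp at Neurod2. At all 3 genes the stages overlapped in width.

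**Figure D5:**
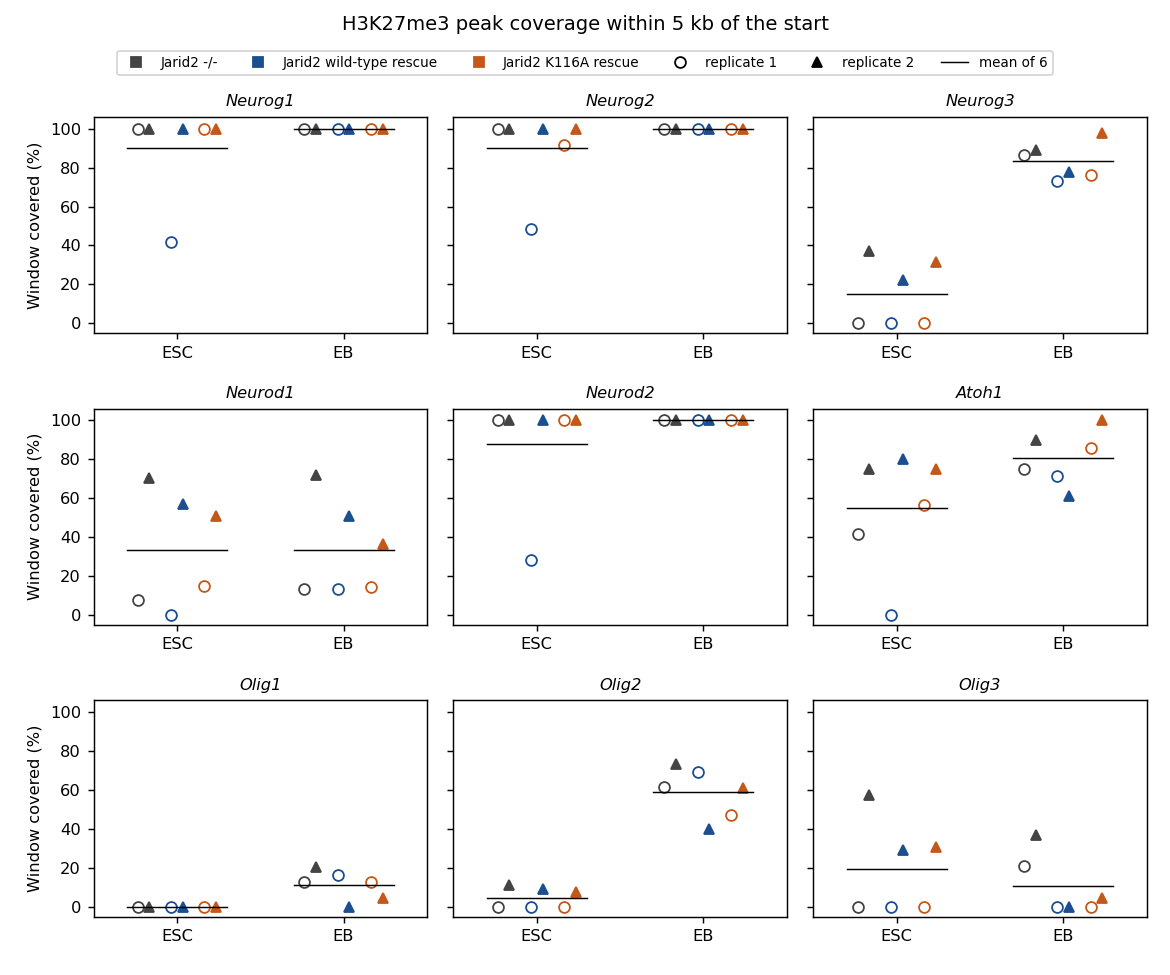
Percentage of the window of 5 kb on each side of the start covered by listed H3K27me3 peaks, for each gene in 6 ESC and 6 EB samples, with the line by colour, the replicate by symbol and a bar at the mean of 6. The EB points lie above all ESC points at Neurog3 and Olig2, replicates 2 lie above replicates 1 at Neurod1 in both stages, and Neurog1, Neurog2 and Neurod2 stand at 100% in EB.

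The 3 lines were compared in EB by their values alone, since 2 samples against 2 cannot give an exact permutation p under 0.333. All lines overlapped there at Olig1 and Neurod1, and all stood at 100% at Neurog1, Neurog2 and Neurod2. In EB the KO lay above both rescues at Olig3, as given above, without overlap. At Neurog3 the EB values were 86.3 and 89.3% in the KO, 73.0 and 77.6% in the WT rescue and 76.1 and 97.7% in the K116A rescue, so that the KO was above the WT rescue and within the range of the K116A rescue. At Olig2 they were 61.4 and 73.4% in the KO, 69.4 and 40.2% in the WT rescue and 47.2 and 61.3% in the K116A rescue, where the WT rescue overlapped both other lines and the KO lay above the K116A rescue. At Atoh1 the EB values were 75.3 and 89.8% in the KO, 71.6 and 61.1% in the WT rescue and 85.8 and 100% in the K116A rescue, so that the WT rescue lay below both other lines without overlap. The EB lists covered 33.61 and 55.03 Mb in the KO, 19.65 and 22.52 Mb in the WT rescue and 23.25 and 37.17 Mb in the K116A rescue. The WT rescue thus had the 2 EB lists that covered least, and its EB samples had the fewest reads, as given above. The part of list size and read number in the order of the lines was not tested.

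The 3 protein-coding genes whose coverage over the 12 samples was most like that of Neurog3 were Gm8439, Pnpla8 and Olfr63, with mean absolute differences of 5.8, 8.03 and 8.12 percentage points per sample. Pnpla8 had peaks over the start in both lists (684.29 for Jarid2 and 684.89 for Jarid2-K116me2), and neither Gm8439 nor Olfr63 had one.

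Among other genes of the bHLH network, some carried Jarid2 at 3100 and some had no peak. Of 9 further neural bHLH genes, 4 had a peak over the start in both lists and 6 had a peak within 10 kb in both. Bhlhe22, Bhlhe23 and Ptf1a scored 3100 with both antibodies, and Ferd3l scored lowest, 382.32 for Jarid2 and 270.91 for Jarid2-K116me2. Neurod4, Neurod6 and Atoh7 had no peak within 10 kb, unlike their relatives Neurod1, Neurod2 and Atoh1.

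The dimer partners and inhibitors were also mixed. Of 3 E proteins, the dimer partners of proneural factors, Tcf12 alone had a peak over the start, for Jarid2 (467.28) and not for Jarid2-K116me2. Of 4 Id genes, which encode inhibitors that sequester E proteins, 3 had a Jarid2 and 2 a Jarid2-K116me2 peak over the start. Over the start, Id4 scored 3100 in both lists, Id3 559.65 and 566.43, and Id2 1041.04 for Jarid2 alone. At Tcf12 and Id2, Jarid2-K116me2 peaks lay within the Jarid2 peak over the start but contained no transcript start (scores 100.1 to 192.44). A further Jarid2-K116me2 peak flanking Id2 scored 3021.68. None of the genes on these lists passed the permutation test for H3K27me3 coverage between the stages, and neither did any other of the 8176 tested genes. Bhlhe23 was the only gene on these lists with all EB samples above all ESC samples, 9.64 to 48.8% in ESC and 63.8 to 100% in EB.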

How the data were processed

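Jarid2 and Jarid2-K116me2 ChIP-seq (1 sample each, E14 ESC) and H3K27me3 ChIP-seq (12 samples) were analysed from the peak lists; the 2 inputs have no list used here. Per the submitters' processing notes and the methods of the study, the authors mapped single reads to mm9 with Bowtie2 2.1.0. They called peaks for each sample separately against an input, with MACS 1.4.2 for Jarid2 and with MACS2 2.0.10 for broad H3K27me3 regions. The 2 inputs are from E14 ESC and Jarid2 -/- ESC, so no input is from EB or a rescue line. The part of this in the comparison of stages was not tested. The processing notes also name HOMER 3.17. The deposited files give each peak's position and score, not normalized for depth. For Jarid2 the score is minus 10 times the log10 of the p-value. For H3K27me3 the scale of the score is not given in the sources used here, and positions alone were used except in 1 alternative with a minimum score. A listed width or coverage depends on read depth, and absence from a list is no measure of absence.

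The peak coordinates fell within the chromosomes of NCBIM37, whose GENCODE annotation gave genes and starts. Members were all 9 genes by the given list, and all are named. The members and lists were chosen with earlier results of these data known. A peak over the start contained the 5′ end of any transcript of the gene, and overlap counted from 1 bp. H3K27me3 coverage was compared between stages by an exact two-sided permutation test within lines, adjusted by Benjamini-Hochberg over all genes with a peak in the window, and by limma 3.58.1 (R 4.3.3) on line and stage as an alternative. Functions were tested on simulated data. Other genes were named by rule: those of related lists with a peak of 1 antibody alone over the start or with the highest or lowest Jarid2 score, and the 3 genes nearest to Neurog3 in coverage. One gene of the related lists is not reported here. Alternatives covered windows, scores, overlap, the start definition, left-out samples, the replicates 2 alone and the replicate block. The other software was pandas 2.3.3 and numpy 2.4.6 under Python 3.11.15, with figures by matplotlib 3.10.9.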

Additional observations from a re-analysis of the deposited data

Results flagged for a closer look

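The ESC WT rescue replicate 1 stood apart from the other 5 ESC samples in H3K27me3 coverage at 3 genes, by Dixon's criterion for a single distant value. It was at 41.63% at Neurog1, 48.64% at Neurog2 and 28.34% at Neurod2, where the other samples were between 91.69 and 100%. The usual rate of about 1 in 20 groups marked by chance does not hold here, since coverage cannot exceed 100%. At Neurog1 and Neurod2 the other 5 ESC samples were all at 100%, so any lower value would have been marked. The 6 samples also pool 3 lines. The same sample had the smallest list, 1478 peaks. Atoh1 and Neurod1 were also lowest in this sample, at 0%, without meeting the criterion. Without it, the adjusted exact permutation p of these 3 genes stayed above 0.05, and the differences between stages were 0 at Neurog1, 1.38 at Neurog2 and 0 percentage points at Neurod2.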

How the results depend on the processing

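All 9 genes kept a Jarid2 peak over the start under each definition tried, and 8 of 9 a Jarid2-K116me2 peak with the 5′ end of the gene record alone or a score of at least 200, Neurod1 being the exception. The share of Jarid2 peaks overlapping Jarid2-K116me2 was 62.5% with 50% of each peak required and 100% with equal numbers of strongest peaks, and the reverse share was 41.67% with 50% required. Without peaks at 3100 the median difference between start and flank was -115.7 for Jarid2 and 378.5 for Jarid2-K116me2, where all peaks gave 2209 and 2457. The cause is in the construction, since the strongest peaks over the start are the ones removed. For H3K27me3 the limma fit called 570 genes higher and 12 lower where the permutation test called 0 and 0, and past its threshold were Neurog3 (68.17) and Olig2 (54.1); the permutation p has a floor. Leaving out each sample in turn gave 0 permutation calls each time, which says nothing about stability because of this floor. The limma fit, left-out samples being a choice made after seeing the data, then called 143 (without the EB K116A rescue replicate 2) to 1006 genes higher (without the ESC WT rescue replicate 2) and 1 (without the EB K116A rescue replicate 1) to 82 lower (without the ESC WT rescue replicate 1). Neurog3 ranged from 63.4 to 72.66 and Olig2 from 50.94 to 58.25, both called in 12 of 12 runs, while Atoh1 (15.63 to 35.72) and Olig1 (9.507 to 13.63) were called in 1 of 12 each and the other 5 genes in none. In these runs Neurod1 ranged from -8.421 to 7.302. With the replicates 2 alone (8 arrangements, smallest exact p 0.25) the permutation test called 0 genes, and the differences were 57.84 at Neurog3, 48.85 at Olig2, 8.342 at Olig1, 6.739 at Atoh1, -6.369 at Neurod1 and -25.19 at Olig3. At Neurod1 the difference turned to 7.165 with 2 kb on each side and ranged from -10.58 to 10.39 over left-out samples, and at Olig3 it ranged from -18.69 to 0.4566, positive without the ESC KO replicate 2. With the replicate block (64 arrangements) 0 genes were called in either direction, with 1176 at an unadjusted p under 0.05. The replicate number was not a block in the main test, since the methods do not use one. The correlation over genes of the deviations (replicate 1 minus 2) between ESC and EB was not over 0.1 in every line. It was 0.0535 in the KO, 0.104 in the WT rescue and 0.24 in the K116A rescue. Such a correlation does not register a shift shared by all genes, so it cannot decide on the replicate number. The replicates 1 had the shorter lists. A minimum score of 50 for H3K27me3 was chosen after seeing the data, because the planned q-value filter was not run for lack of q-values, and gave 0 calls. No read counts limit the precision that can be stated.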
